A study of Mus musculus with 6 samples.

Results

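The genes described here are 41 type I interferon-stimulated genes, taken by symbol from a table of 25683 mouse genes, and all 41 had an entry. RNA was measured in 6 libraries of cells from mouse aorta, labelled as vascular smooth muscle cells and as a primary line. Libraries 1, 2 and 3 carry the genotype Nt5e Knock-out and libraries 4, 5 and 6 are wild type, with 3 libraries per genotype. Nt5e encodes CD73, the enzyme at the cell surface that makes adenosine from AMP. The cells of both genotypes were grown in DMEM with 10% fetal bovine serum and were then held at 0.5% serum for 48 h, which the labels describe as a differentiation step. The labels name no interferon, no nucleic acid ligand and no infection for either genotype. The labels give neither the knocked-out part of Nt5e nor the strain and age of the mice. They do not say that the libraries came from separate mice or cultures, so a p-value here measures the spread between libraries, which may be technical.

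Type I interferons are secreted proteins, and most cells can make them after sensing foreign or misplaced nucleic acid. They bind a receptor built from IFNAR1 and IFNAR2, whose kinases JAK1 and TYK2 phosphorylate proteins of the STAT family. STAT2 then joins IRF9 in the complex ISGF3, which binds interferon-stimulated response elements in the promoters of its target genes. The targets detect viral RNA, degrade it, block its translation or hold back budding particles, and USP18 and other targets damp the signal. Vascular smooth muscle cells carry the receptor and respond to interferon.

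The libraries held 19919095 to 23669252 exon reads each. Nt5e had 22, 1 and 2 reads in knock-out libraries 1, 2 and 3 against 615, 688 and 486 in wild-type libraries 4, 5 and 6. Knock-out library 1 stood apart from its own group: the biological coefficient of variation, the spread beyond counting error, was 42.9% and 43.3% against libraries 2 and 3 and 42.3% to 46.5% against the wild type. Libraries 2 and 3 differed by only 3.65%, as did wild-type libraries 4 and 6 by 3.49%. Each of these pairs differed by more than counting noise (chi-square of 3.42 and 3.44 per degree of freedom), which does not show that they are separate samples; the test counts them separately, and values with each pair summed are given too. The library titles carry KO2 in libraries 1 and 2, KO5 in 3, WT10 in 4 and WT11 in 5 and 6, so the alike libraries do not share these names, which the labels do not explain. The titles of library 1 and of wild-type library 5, which differed from 4 and 6 by 14.7% and 15.5%, share the numbers 11 (after p) and 1 (last). Wild-type library 4 also carries 11 after p, so only the last number is shared by libraries 1 and 5 alone. Smooth muscle markers were uneven. Cald1, which many other cells also express, stood at 777 to 1814 CPM in every library and Acta2 at 51.9 to 546 CPM, while Des and Myocd were close to 0, and the smooth muscle myosin gene Myh11 had 5, 54 and 67 reads in the knock-out, compared with 7 summed over the wild type. Because of library 1, the interferon-stimulated genes are given for each knock-out library by itself.

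Of the 41 genes, 39 passed the filter on low counts and entered the test. In the knock-out, Ifit2 and Ifit3 rose and Isg20 fell, while 36 members did not pass (quasi-likelihood F test in edgeR, Benjamini-Hochberg adjustment over all 12660 tested genes, threshold 0.05). Over all tested genes, 27.8% passed, 14.1% as higher and 13.7% as lower, so the interferon-stimulated genes were called at a smaller share (7.69%) than genes at large. Oas3, with 4, 0 and 0 reads in the knock-out, compared with 5, 9 and 10 in the wild type, and Mx1, with 7, 1 and 1 against 1, 2 and 2, fell below the filter. The median log2 fold change over the 39 genes was 0.13, beside 0.018 over all tested genes. DESeq2 called 6 members, where 36.8% of all genes passed, and gave no p for 7 (Irf7, Oas1a, Oas2, Oasl2, Rsad2, Cmpk2 and Ifi44). All 39 genes entered DESeq2, so these 7 were not lost to the filter on low counts. Limma-voom called 3, where 28.2% of all genes passed. With the nearly identical pairs summed, no member passed in edgeR (5 higher and 1 lower at an unadjusted p under 0.05) and 0.13% of all genes did. The exon calls that are named below for members and for the 3 further lists of interferon genes all ended there; the marker and intron calls were not examined in that way. Here and below, the share of all genes at an unadjusted p under 0.05 is not given. Counts at that threshold thus cannot be read as a result about the members. With either of the numbers in the library titles as a covariate, 5 members passed (the last number, 35.6% of all genes) or 6 (the number after p, 24.7%).

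That small count came with large differences among the knock-out libraries. In library 1, 36 of the 39 genes lay above all 3 wild-type values, 2 lay below and 1 lay within, whereas 41% of all tested genes lay above and 42.1% below. In library 2, 6 of the 39 lay above and 28 below the wild-type values, against 43.1% and 43.9% of all tested genes. In library 3, 5 lay above and 32 below, against 43.4% and 43.7%. The median log2 ratio to the wild-type mean was 1.11, -0.33 and -0.55 in libraries 1, 2 and 3, and between -0.01 and 0.00 over all tested genes in each of them. Normalised counts are given as CPM, the read count relative to the TMM-adjusted library size. Summed over the 41 genes they were 2654, 1167 and 1084 CPM in knock-out libraries 1, 2 and 3 and 1296, 1274 and 1292 CPM in wild-type libraries 4, 5 and 6. In bulk RNA, fewer cells with active genes and less RNA per cell cannot be told apart.

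**Figure D1:**
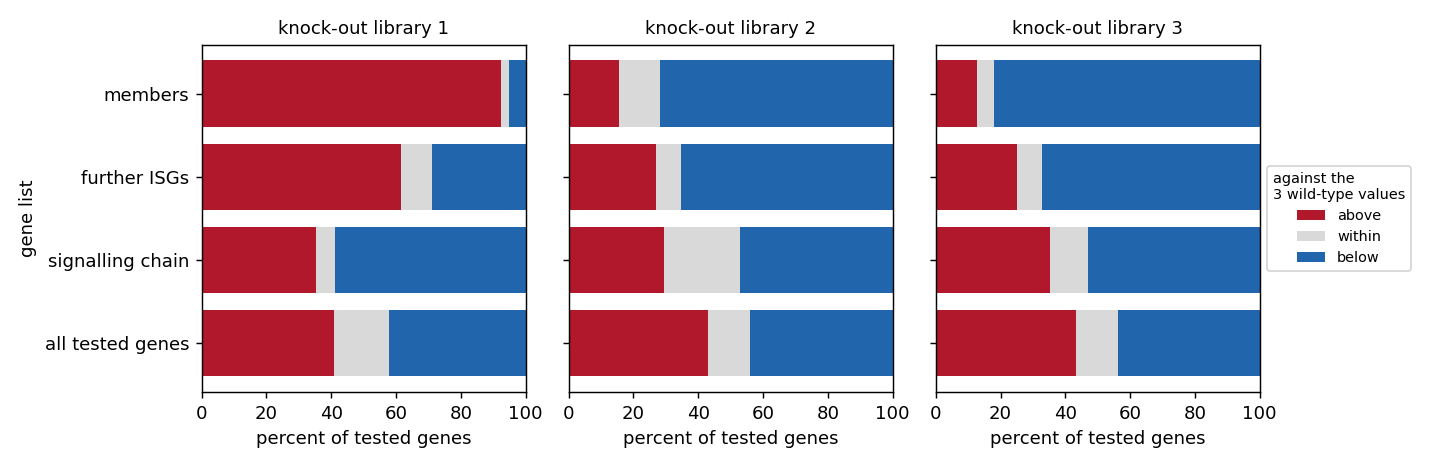
Share of tested genes (horizontal axis, percent) whose normalised count lay above, within or below the range of the 3 wild-type values, for each knock-out library and 4 gene lists. The 39 tested interferon-stimulated genes are nearly all above the wild type in library 1 (36 of 39) and mostly below it in libraries 2 and 3 (28 and 32 of 39), while all tested genes split about evenly.

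A single arrangement held most of the genes. For 26 of the 39 (66.7%), knock-out library 1 was above every wild-type value and libraries 2 and 3 were below every wild-type value, an arrangement that 9.19% of all tested genes showed. Across these 26, library 1 stood at 1.15-fold (Parp12) to 5.50-fold (Rsad2) of the wild-type mean. Where there were more than 3 reads, library 2 stood at 5.68% (Oas1a) to 92.8% (Stat2) of it and library 3 at 5.86% (Zbp1) to 89.1% (Ifih1). Another 5 genes, Irf9, Isg15, Ifit2, Ifit3 and Ifit3b, lay above all wild-type values in all 3 knock-out libraries, as 24.3% of all tested genes did. Isg20 alone lay below in all 3, as did 25.5% of all tested genes. Usp18, Ifit1, Mx2 and Bst2 were above in library 1, within the wild-type range in library 2 and below it in library 3. Eif2ak2, Irf1 and Dtx3l each had an arrangement of their own.

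**Figure D2:**
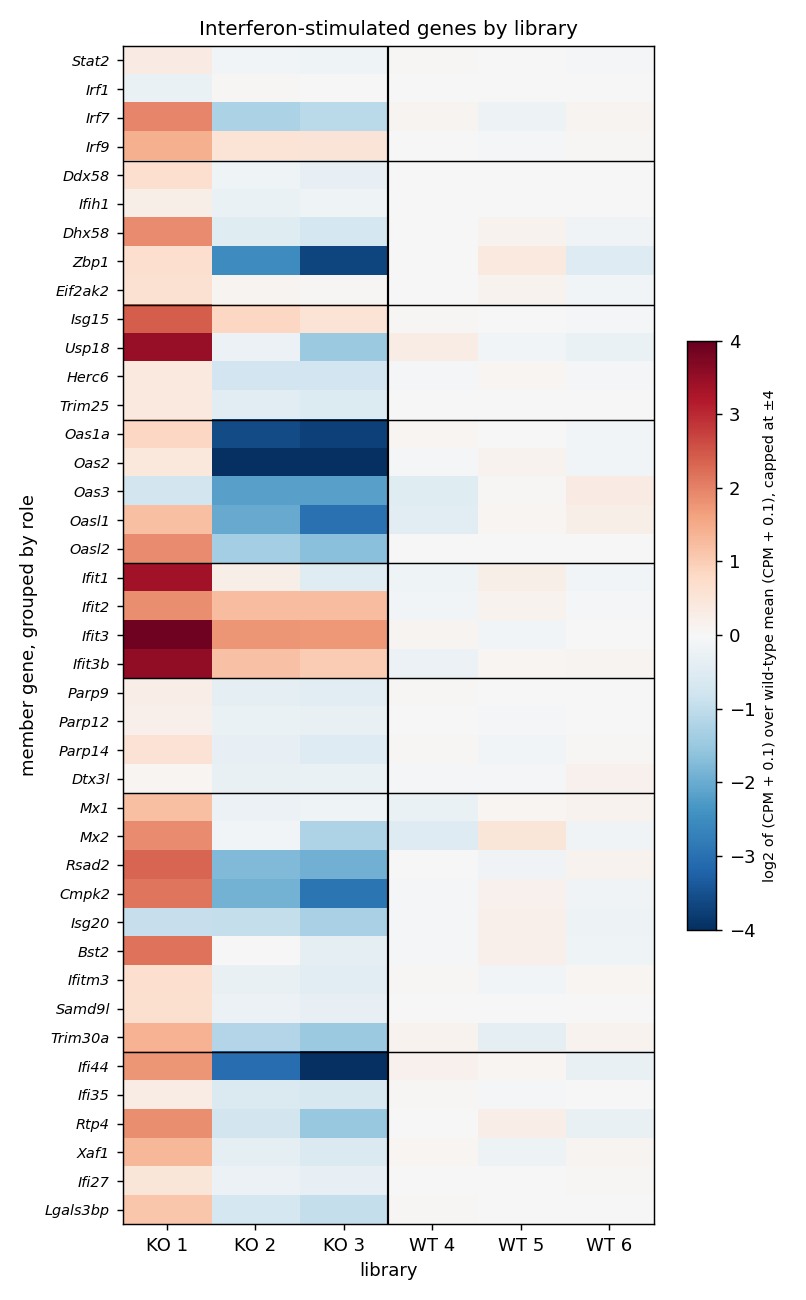
Each row is an interferon-stimulated gene, grouped by role, and each column a library; the colour is the log2 of CPM plus 0.1 over the wild-type mean plus 0.1, capped at 4 in either direction. The column of knock-out library 1 is red for nearly every gene and the columns of libraries 2 and 3 are mostly blue, apart from Irf9, Isg15, Ifit2, Ifit3 and Ifit3b.

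Between the knock-out libraries themselves, library 1 was at least 2-fold above the mean of libraries 2 and 3 for 23 of the 39 genes, against 10.9% of all tested genes, and at least 4-fold above it for 18, against 4.63%. No member was 2-fold lower there, against 6.24% of all tested genes. The median log2 difference was 1.82, beside 0.01 over all tested genes. Between wild-type libraries, 1 of 39 was 2-fold apart in 4 against 5, 0 in 4 against 6 and 0 in 5 against 6, against 3.88%, 0.932% and 4.31% of all tested genes. Libraries 2 and 3 were 2-fold apart for 6 of the 39 genes, against 1.61% of all tested genes. All 6 had few reads in these libraries: Usp18 (19 and 6), Zbp1 (15 and 5), Oasl1 (2 and 0), Mx2 (17 and 6), Cmpk2 (9 and 3) and Ifi44 (5 and 0). At such counts a 2-fold gap can be counting noise. Library 1 held the highest value of all 6 libraries for 36 of the 39 genes, against 23.9% of all tested genes, and library 3 the lowest for 27, against 19.9%.

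The IFIT genes, which encode proteins that bind viral RNA and block its translation, form a cluster of 4 members on chromosome 19 (34550694 to 34650009 in GRCm38). They held both of the genes that rose. Promoter windows from RefSeq (GRCm38.p6), from 250 bases before to 50 after an annotated start, were matched for 31 of the 41 genes and searched on both strands for GAAANNGAAA, a core of the interferon-stimulated response element. It occurred in 14 of the 31 (45.2%), beside 3.99% of the 27025 genes with a window. Ifit2 and Isg20, which passed the test on exon reads, had no such motif in their windows. Upstream stretches are shown only for genes with the motif before the start, chosen among those that the results turn on. They run 5′ to 3′ on the strand of the gene, with the motif or its reverse complement in capitals.
Ifit1, chr19:34640745-34640853, plus strand: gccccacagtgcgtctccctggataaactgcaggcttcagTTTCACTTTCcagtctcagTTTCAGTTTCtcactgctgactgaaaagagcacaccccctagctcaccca
Ifit3, chr19:34583333-34583456, plus strand: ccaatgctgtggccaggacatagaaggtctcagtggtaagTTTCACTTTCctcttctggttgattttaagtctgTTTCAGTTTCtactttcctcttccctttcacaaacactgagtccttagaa
Ifit3b, chr19:34607729-34607852, plus strand: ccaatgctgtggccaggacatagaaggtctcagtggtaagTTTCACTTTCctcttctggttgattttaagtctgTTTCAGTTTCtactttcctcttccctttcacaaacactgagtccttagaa
Isg15, chr4:156200835-156200936, minus strand: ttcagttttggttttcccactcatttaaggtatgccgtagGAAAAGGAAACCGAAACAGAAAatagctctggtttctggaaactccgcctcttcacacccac
Oas1a, chr5:120907526-120907585, minus strand: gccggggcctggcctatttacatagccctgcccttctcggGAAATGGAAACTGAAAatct
Rsad2, chr12:26456523-26456612, minus strand: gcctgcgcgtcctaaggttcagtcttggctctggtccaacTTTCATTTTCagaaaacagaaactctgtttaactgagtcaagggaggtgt
Bst2, chr8:71537547-71537642, minus strand: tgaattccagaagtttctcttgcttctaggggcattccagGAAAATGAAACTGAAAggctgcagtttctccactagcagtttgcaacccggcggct

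The printed stretches of Ifit3 and Ifit3b were identical over all 124 bases, and the genes share part of their reads as well: 77.3% of the exon reads of Ifit3 and 79.1% of those of Ifit3b were unique, so their values are uncertain to that extent. Whether the motif goes with an arrangement was not tested. Among the 5 genes above the wild type in all 3 knock-out libraries it was in the windows of Isg15, Ifit3 and Ifit3b and not in those of Irf9 and Ifit2. Among the 26 genes above in library 1 and below in libraries 2 and 3, it was found in 7 windows (Stat2, Ddx58, Ifih1, Oas1a, Rsad2, Ifitm3 and Trim30a) and not in 12, with 7 genes unmatched. Of the tested genes with other arrangements, Ifit1, Bst2 and Eif2ak2 had it, Isg20, Irf1 and Dtx3l did not, and Usp18 and Mx2 were unmatched. The window of Irf1 held no such motif but a match to TTCNNNGAA, the form bound by STAT dimers, which occurred in 8 of the 31 windows (25.8%) beside 9.55% of all genes; in Bst2 and Ifitm3 matches to both motifs overlapped. TTCNNNGAA without GAAANNGAAA was also found for Ifit2, Isg20 and Ifi35, whose arrangements differed from each other, and both motifs for Oas1a and Eif2ak2. Whether this motif goes with an arrangement was not tested either. Isg20, which passed and lay below the wild type in all 3 knock-out libraries, has a match before its start and is not shown. The stretch of Irf1, which did not pass, is shown because it was the only tested member with its lowest value in library 1.
Irf1, chr11:53769884-53769972, plus strand: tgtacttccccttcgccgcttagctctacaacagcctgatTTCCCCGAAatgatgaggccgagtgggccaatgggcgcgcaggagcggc

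Within the IFIT cluster, Ifit2 had 145, 94.2 and 94.0 CPM in knock-out libraries 1, 2 and 3, compared with 37.0, 43.2 and 38.5 CPM in wild-type libraries 4, 5 and 6. All 3 knock-out values were more than 2-fold above every wild-type value, with library 1 the highest, and Ifit2 rose by 1.49 ± 0.20 on the log2 scale (SE; edgeR adjusted p = 0.00534). Ifit3 stood at 298, 68.1 and 66.2 CPM against 21.4, 18.5 and 20.05 CPM. The groups again did not overlap, but library 1 was 14.9-fold above the wild-type mean and libraries 2 and 3 stood at 341% and 331% of it. Ifit3 rose by 2.85 ± 0.66 (adjusted p = 0.0268), a call that ended without wild-type library 4, 5 or 6 (adjusted p of 0.102, 0.0997 and 0.101 in edgeR). Ifit3b, its near copy, stood at 54.3, 10.5 and 9.31 CPM against 3.88, 4.85 and 4.96 CPM. Its groups did not overlap either, and it did not pass (2.44 ± 0.75, edgeR adjusted p = 0.0597). Ifit1, whose protein recognises the cap of foreign RNA, stood at 131, 14.98 and 9.09 CPM against 11.2, 15.04 and 11.8 CPM. Here libraries 2 and 3 were among or below the wild-type values and only library 1 was high (2.02 ± 1.02, edgeR adjusted p = 0.186). Summed over the 4 genes, the knock-out libraries held 628, 188 and 179 CPM and the wild type 73.5, 81.6 and 75.2 CPM.

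**Figure D3:**
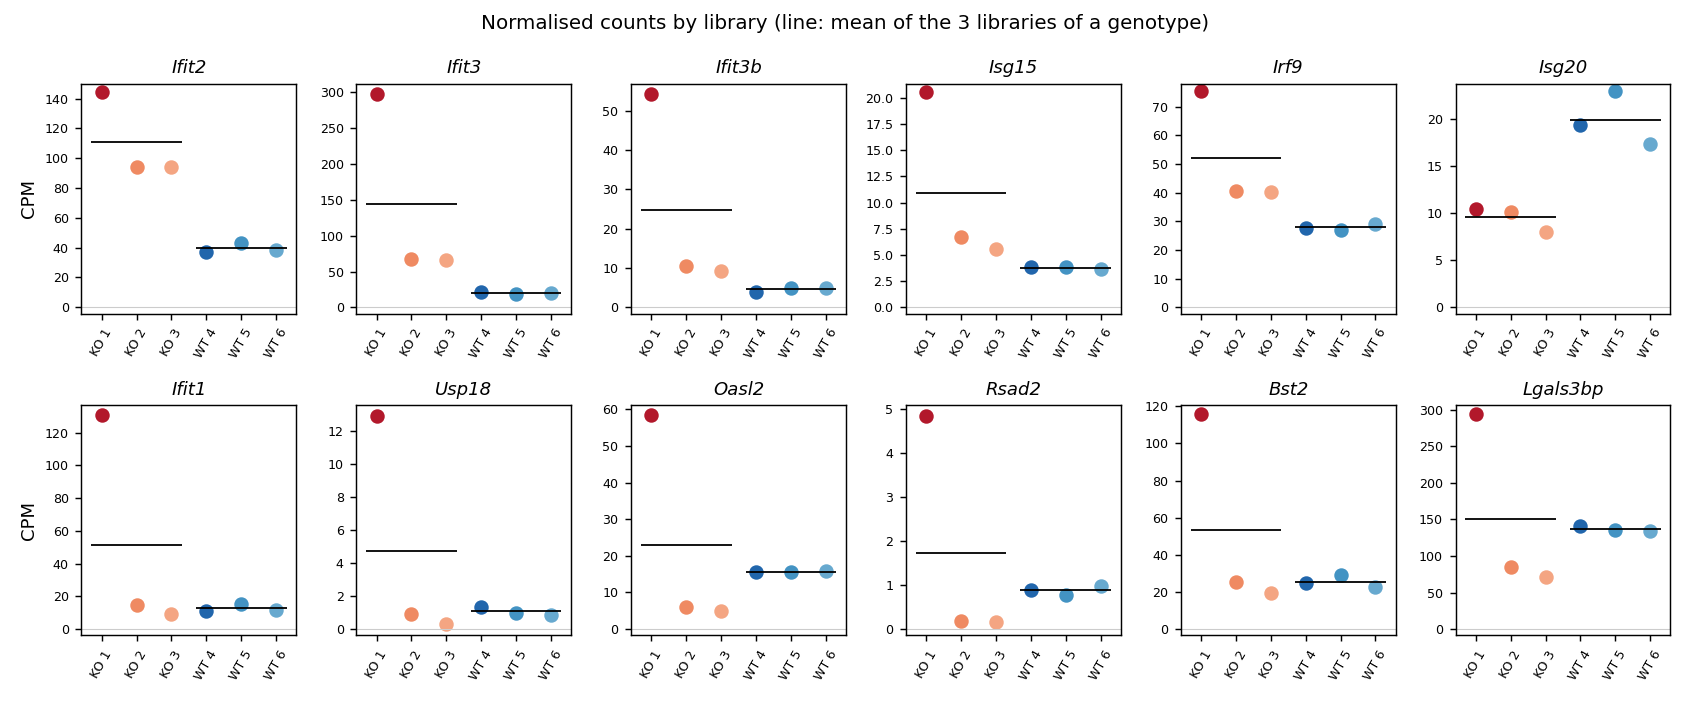
Normalised counts (vertical axes, CPM, linear) of 12 interferon-stimulated genes in each of the 6 libraries; each point is a library and the lines are the means of the 3 libraries of a genotype. In Ifit2, Ifit3, Ifit3b, Isg15 and Irf9 all knock-out points lie above the wild type and in Isg20 all lie below, while in Ifit1, Usp18, Oasl2, Rsad2, Bst2 and Lgals3bp only knock-out library 1 lies above.

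None of the 4 genes of the ISG15 system passed in edgeR (1 was higher at an unadjusted p under 0.05, and DESeq2 called 1 and limma-voom 0). Over all tested genes, 27.8% passed in edgeR, 36.8% in DESeq2 and 28.2% in limma-voom. Beside these shares, the counts called in groups this small, here and in the roles below, are not a result about a role. ISG15 is a small protein that is attached to other proteins much as ubiquitin is. Isg15 stood at 20.5, 6.74 and 5.53 CPM against 3.88, 3.82 and 3.61 CPM. Its groups did not overlap, with library 1 at 5.44-fold of the wild-type mean, and the difference was 1.54 ± 0.53 (log2; edgeR adjusted p = 0.0794). Usp18, whose protein removes ISG15 and blocks the interferon receptor, had 298, 19 and 6 reads against 30, 24 and 19. Library 1 was 12.1-fold above the wild-type mean, library 2 was within the wild-type values and library 3 was below them. Trim25, a ubiquitin ligase that activates the sensor RIG-I, stood at 68.1, 37.9 and 35.5 CPM against 52.0, 51.9 and 51.8 CPM. Herc6, the mouse ligase for ISG15, stood at 14.8, 6.50 and 6.59 CPM against 10.96, 11.96 and 10.7 CPM. Trim25 and Herc6 thus were high in library 1 and low in libraries 2 and 3, on both sides of wild-type values that lay close together.

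The transcription factors of the response did not move as a set, and none of the 4 passed in edgeR (1 was higher at an unadjusted p under 0.05; DESeq2, which gave no p for Irf7, called 1 and limma-voom 0). Irf9, the DNA-binding part of ISGF3, stood at 75.6, 40.6 and 40.1 CPM in the knock-out, compared with 27.6, 26.9 and 29.1 CPM in the wild type. The groups did not overlap and the log2 fold change was 0.90 ± 0.27, just outside the threshold (edgeR adjusted p = 0.0511). Irf9 lies on chromosome 14, whose tested genes had a median log2 fold change of 0.40, and 123 bases of it overlap Rnf31 on the same strand; the part of either in the difference was not tested. Stat2, whose product is also part of ISGF3, was at 67.6, 50.4 and 48.2 CPM against 56.5, 54.9 and 51.5 CPM. Irf7, which amplifies interferon production, stood at 30.8, 3.25 and 3.67 CPM against 8.47, 6.82 and 8.47 CPM. Library 1 was 3.89-fold above the wild-type mean of Irf7, and libraries 2 and 3 stood at 41.04% and 46.3% of it. Irf1, the most abundant of the 4 by mean CPM, ran the other way: it stood at 52.1, 64.9 and 62.9 CPM against 63.2, 62.8 and 62.0 CPM, lowest in library 1 and level in the rest (-0.063 ± 0.098, edgeR adjusted p = 0.653).

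All 5 sensors of RNA and DNA were above the wild type in library 1, none passed in edgeR, and none did in DESeq2 or limma-voom or at an unadjusted p under 0.05. Eif2ak2, which encodes the kinase PKR that halts translation on double-stranded RNA, stood at 76.3, 53.5 and 51.4 CPM against 48.5, 54.1 and 45.8 CPM. Its libraries 2 and 3 lay within the wild-type range. Ddx58, which encodes RIG-I, stood at 81.8, 45.7 and 40.6 CPM against 50.8, 52.3 and 51.3 CPM. Dhx58, which encodes the RIG-I relative LGP2, was at 12.4, 2.31 and 1.97 CPM against 3.25, 3.62 and 2.96 CPM, and Ifih1, which encodes MDA5, at 32.7, 23.1 and 24.6 CPM against 27.1, 27.6 and 28.2 CPM. Zbp1, a sensor of left-handed nucleic acid, had 169, 15 and 5 reads against 101, 145 and 68. Library 1 was at 1.61-fold of the wild-type mean, and libraries 2 and 3 were at 15.6% and 5.86% of it.

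The OAS genes encode enzymes that make an oligoadenylate messenger, or relatives without that activity, and the messenger switches on RNase L. The knock-out libraries differed widely here: summed over the 5 genes, normalised counts were at 72.1, 6.45 and 5.16 CPM in the knock-out, compared with 23.98, 24.8 and 24.2 CPM in the wild type. None of the 4 tested genes passed in edgeR or limma-voom, and none had an unadjusted p under 0.05 in edgeR; DESeq2 gave a p only for Oasl1, which did not pass. Oasl2 stood at 58.4, 6.03 and 4.84 CPM against 15.5, 15.6 and 15.8 CPM, so that library 1 was 3.74-fold above and libraries 2 and 3 were at 38.6% and 31.0% of the wild-type mean. Oas1a had 138, 4 and 3 reads against 79, 81 and 67, and Oas2 had 135, 3 and 3 reads against 95, 117 and 86. Both were nearly silent in libraries 2 and 3 while present in the wild type and in library 1. Of the exon reads of Oas1a, 75.5% were unique, so near copies may share its reads. Oasl1 had 40, 2 and 0 reads against 11, 18 and 18.

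Among the 8 other antiviral genes that were tested, 1 passed in edgeR, in limma-voom and in DESeq2, which gave no p for Rsad2 and Cmpk2. Isg20, an RNA exonuclease, stood at 10.4, 10.1 and 8.03 CPM in the knock-out, compared with 19.3, 22.97 and 17.4 CPM in the wild type. It was the only tested member with every knock-out value below every wild-type value, library 1 included (Oas3, below the filter, had the same order at 10 or fewer reads), and it fell by 1.06 ± 0.16 on the log2 scale (edgeR adjusted p = 0.00833). Ifitm3, which encodes a membrane protein that stops viruses at entry and was the most abundant member, stood at 468, 240 and 218 CPM against 304, 274 and 312 CPM (0.057 ± 0.30, edgeR adjusted p = 0.902). Bst2, which encodes the tether that holds budding virus, stood at 116, 25.3 and 19.6 CPM against 24.7, 29.1 and 22.7 CPM, and only library 1 stood out (1.07 ± 0.69, edgeR adjusted p = 0.286). Rsad2, which encodes viperin, had 112, 4 and 3 reads against 20, 19 and 21. Cmpk2, its neighbour on chromosome 12, had 196, 9 and 3 reads against 40, 51 and 36. Library 1 was 5.50-fold and 4.59-fold above the wild-type mean of Rsad2 and Cmpk2, and libraries 2 and 3 were far below it. Mx2 had 81, 17 and 6 reads against 13, 31 and 17. Samd9l stood at 102, 55.5 and 52.9 CPM against 64.7, 65.5 and 67.2 CPM, and Trim30a at 8.91, 1.41 and 1.12 CPM against 3.65, 2.59 and 3.70 CPM.

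The 4 genes of the PARP group, which encode ADP-ribosyltransferases and the ligase partner DTX3L, had library 1 at 1.06-fold (Dtx3l) to 1.49-fold (Parp14) of the wild-type mean and libraries 2 and 3 at 70.5% to 83.5% of it. Parp12, the most abundant of them by mean CPM, stood at 46.1, 33.5 and 33.0 CPM in the knock-out, compared with 41.05, 39.3 and 40.2 CPM in the wild type. Parp9 (48.3, 31.3 and 30.5 CPM against 41.5, 39.9 and 39.96 CPM) and Parp14 (44.5, 23.8 and 21.1 CPM against 31.0, 28.0 and 30.9 CPM) had the same arrangement. Dtx3l stood at 36.0, 27.8 and 28.2 CPM against 31.9, 32.0 and 38.1 CPM, within the wild-type range in library 1. Parp9 and Dtx3l overlap by 682 bases on opposite strands. None of the 4 passed in edgeR, DESeq2 or limma-voom, nor had an unadjusted p under 0.05 in edgeR.

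The 6 remaining genes all had library 1 above and libraries 2 and 3 below the wild type, and none passed in edgeR or limma-voom or at an unadjusted p under 0.05 in edgeR. DESeq2 called none of the 5 for which it gave a p, and gave none for Ifi44. Lgals3bp, a secreted glycoprotein, stood at 295, 84.7 and 71.5 CPM against 141, 136 and 134 CPM. Library 1 was 2.15-fold above the wild-type mean and libraries 2 and 3 were at 61.8% and 52.2% of it, so the difference between the groups was 0.13 ± 0.55 (log2; edgeR adjusted p = 0.871). Ifi27 stood at 109, 66.4 and 62.4 CPM against 77.6, 76.7 and 80.3 CPM, Ifi35 at 45.9, 24.6 and 23.6 CPM against 38.7, 36.0 and 36.8 CPM, and Xaf1 at 19.4, 5.80 and 5.10 CPM against 8.11, 6.70 and 8.20 CPM. Rtp4, which overlaps Masp1 by 525 bases on the opposite strand, stood at 25.3, 4.10 and 2.34 CPM against 6.86, 8.22 and 5.51 CPM. Ifi44 had 213, 5 and 0 reads against 68, 68 and 46.

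Between genes, levels were compared only per length, on the authors' RPKM. In the wild type the mean RPKM ranged from 0.0206 (Mx1) to 418 (Ifitm3). It was at least 1 for 32 of the 41 genes and at least 10 for 13. After Ifitm3 came Ifi27 at 72.6, Lgals3bp at 48.1 and Bst2 at 30.7 RPKM, so several members were well expressed in wild-type cells, for which the labels name no added interferon.

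Leaving out knock-out library 1 changed the result for most members. The test then rested on libraries 2 and 3, which are nearly identical, against the 3 wild-type libraries, and 66.2% of all tested genes passed, 32.6% as higher and 33.7% as lower. Of the 39 members, 32 passed, 5 as higher and 27 as lower, and the median log2 fold change over members was -0.50. The 5 higher genes were those above the wild type in all 3 knock-out libraries: Ifit3 (1.74), Ifit2 (1.24), Ifit3b (1.11), Isg15 (0.70) and Irf9 (0.53), as log2 fold changes. The share of members called lower (69.2%) was above that of all genes, and the share called higher (12.8%) was below. In 20 members the sign of the fold change differed from that with all 6 libraries, among them Oasl2 (-1.53, edgeR adjusted p = 8.41e-05), Irf7 (-1.20, 9.03e-04) and Lgals3bp (-0.82, 1.97e-04).

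**Figure D4:**
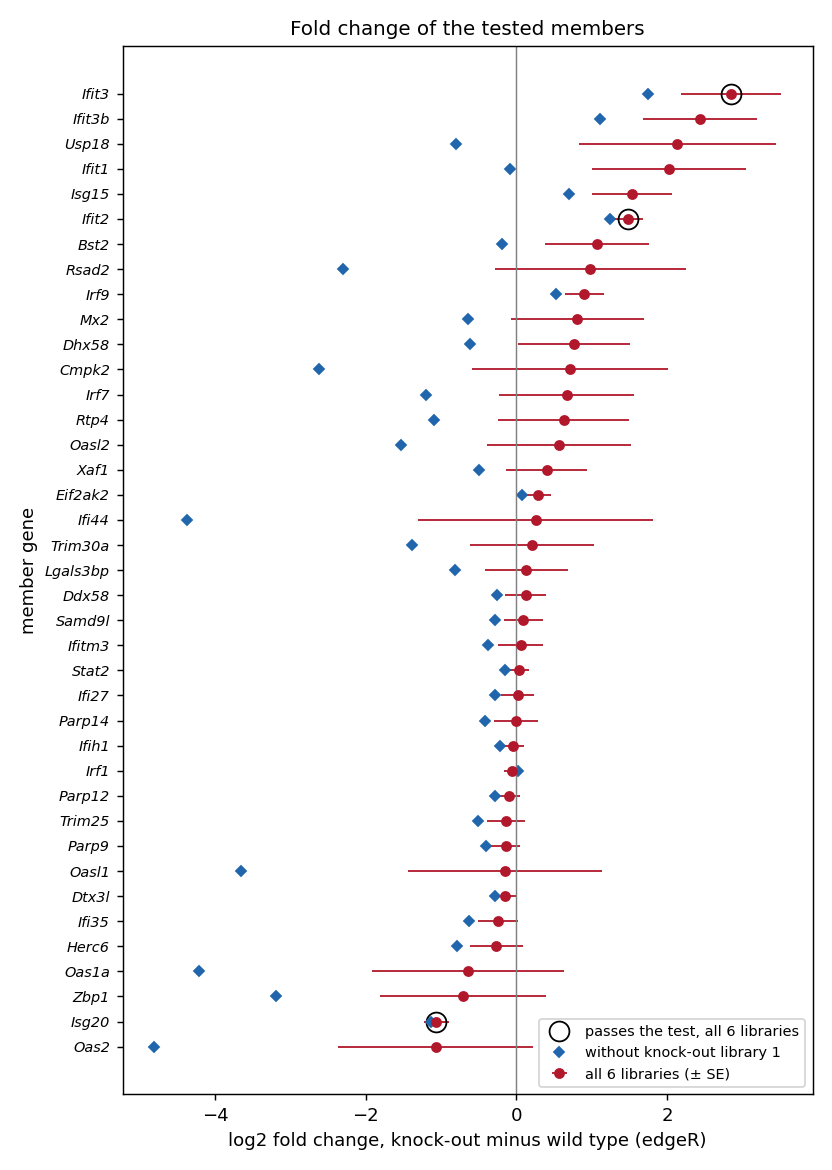
Log2 fold change of knock-out over wild type (horizontal axis, edgeR) for the 39 tested interferon-stimulated genes, with all 6 libraries (circles, whiskers ± SE) and without knock-out library 1 (diamonds). Black rings mark Ifit2, Ifit3 and Isg20, which pass with all 6 libraries; without library 1 most values move to the left and 27 genes pass as lower.

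Reads in introns, which come largely from RNA not yet spliced and which the exon counts do not contain, were tested in the same way. Of the members, 28 had enough intron reads; Ifit2 (1.17 ± 0.17, edgeR adjusted p = 0.00368), Ifit3 (2.83 ± 0.76, 0.0444) and Dhx58 (1.17 ± 0.31, 0.0424) rose. None fell, also at an unadjusted p under 0.05, where 5 were higher; other tools were not run on intron reads. Over all genes tested on intron reads, 11.9% passed, 5.06% as higher and 6.87% as lower. The count of 3 was 1 without wild-type library 4, 5 or 6, and 11 without knock-out library 1, where 4 were higher and 7 lower. The shares over all genes on intron reads are not given for these runs, so the counts cannot be read as a result about the members. On exon reads, 66.2% of all tested genes passed without library 1. Intron reads of Ifit3 were 130, 32 and 23 in the knock-out, compared with 11, 6 and 10 in the wild type, and reads across its exon junctions 377, 63 and 55 against 23, 19 and 19. Both readouts put library 1 first and all knock-out libraries above the wild type, as the exon reads did. In Dhx58 the readouts differed. Its intron reads were low and above the wild type in all knock-out libraries (19, 25 and 19 against 9, 9 and 10). Its exon values in libraries 2 and 3 were below every wild-type value. Summed over the members, intron reads were 2319, 1311 and 1154 against 1379, 1505 and 1389, although library 1 had the fewest intron reads over all genes (963039, against 1051048 to 1214127 in the others). Scaled to depth, the intron value of library 1 was above all wild-type values for 21 of the 28 genes, against 34.7% of all genes tested on intron reads.

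The chain from interferon to ISGF3 was followed in 38 genes that are not members. Of the 21 genes for interferon ligands, 19 had 0 reads in all 6 libraries, Ifnb1 among them. Ifnz had 8 reads over each genotype and Ifne 1 in the knock-out. A count of 0 in a single library leaves room for an expected count of up to about 3 reads. Messages of these 19 genes were thus not detected here, in RNA selected for a poly(A) tail, which does not show that they were absent. Of the 17 genes that entered the test, 1 rose and 5 fell, beside 14.1% and 13.7% of all tested genes. The receptor gene Ifnar1 stood at 60.7, 96.5 and 101 CPM in the knock-out, compared with 88.3, 83.3 and 87.7 CPM in the wild type, lowest in library 1 (-0.0058 ± 0.20, edgeR adjusted p = 0.984). Ifnar2 stood at 69.4, 62.9 and 58.7 CPM against 88.3, 72.8 and 84.2 CPM, below all wild-type values in all 3 libraries, just outside the threshold (-0.36 ± 0.11, edgeR adjusted p = 0.0516). Jak1 was at 217, 361 and 369 CPM against 264, 250 and 284 CPM, and Tyk2 at 43.8, 30.6 and 31.8 CPM against 33.5, 33.5 and 34.8 CPM. Tyk2 was the only one of the 17 with library 1 above and libraries 2 and 3 below the wild type, beside 9.19% of all tested genes.

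The genes of this chain that did pass are known mostly from other cytokine pathways, and in them library 1 stood with libraries 2 and 3. Jak2, the kinase of the interferon gamma and many cytokine receptors, stood at 106, 82.0 and 82.4 CPM against 296, 326 and 292 CPM and fell by 1.76 ± 0.13 on the log2 scale (edgeR adjusted p = 0.00102). Socs3, an inhibitor of JAK kinases, stood at 31.5, 22.0 and 20.1 CPM against 155, 167 and 140 CPM and fell by 2.65 ± 0.19 (0.00103). Stat3, which carries signals of the interleukin 6 family, stood at 340, 305 and 283 CPM against 516, 488 and 490 CPM and fell by 0.69 ± 0.094 (0.00594). Ifnlr1 and Ifngr2, receptor chains for interferon lambda and gamma, fell by 1.12 (0.0176) and 0.45 (0.0246), but neither passed when any library other than library 1 was left out (adjusted p in edgeR up to 0.0823 for Ifnlr1 and 0.0974 for Ifngr2). Ptpn6, a phosphatase, had 73, 24 and 42 reads against 4, 2 and 9 and rose by 3.25 ± 0.68 (0.0197). Ptpn6 no longer passed when knock-out library 3 or wild-type library 4 or 5 was left out (adjusted p in edgeR up to 0.0950).

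**Figure D5:**
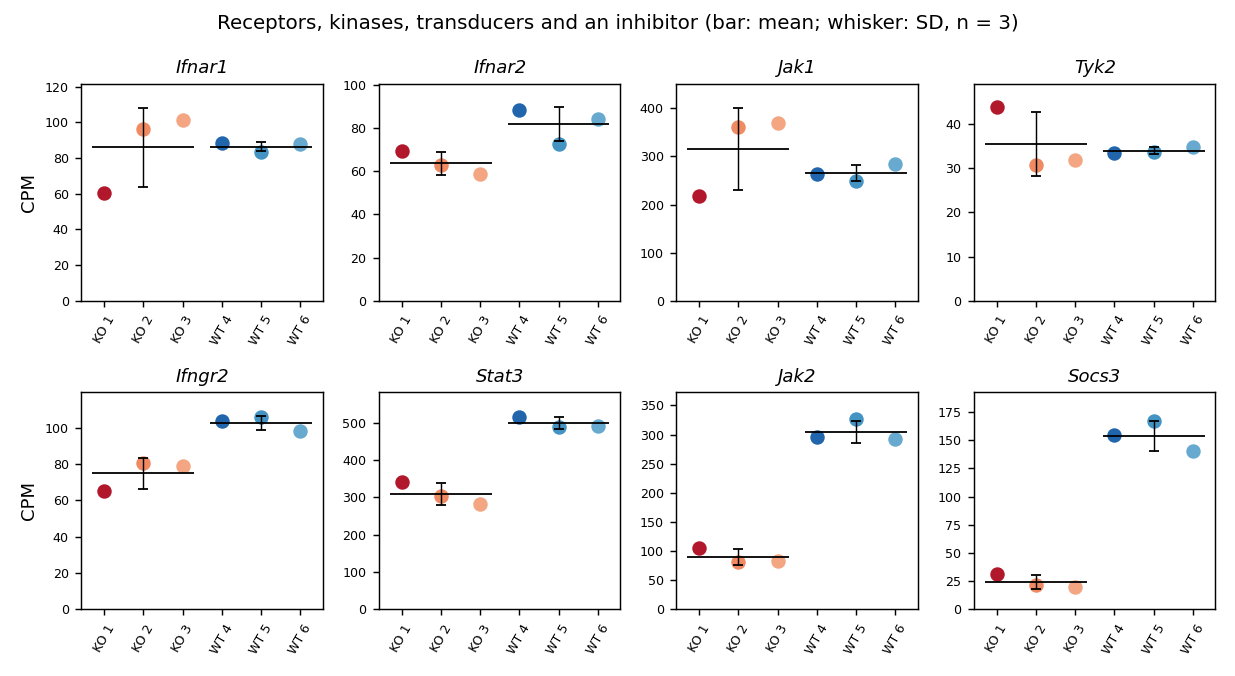
Normalised counts (vertical axes, CPM, linear from 0) of receptor, kinase, transducer and inhibitor genes in each library; lines are means and whiskers the SD over 3 libraries. Tyk2 is highest in knock-out library 1, Ifnar1 and Jak1 are lowest there, and in Ifngr2, Stat3, Jak2 and Socs3 all 3 knock-out points lie below the wild type.

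Upstream of interferon, 35 of 39 listed genes for sensing nucleic acid or clearing it were tested. Of these, 6 rose and 6 fell, beside 14.1% and 13.7% of all tested genes. Sting1, the adaptor of the cGAS pathway for cytosolic DNA, stood at 38.3, 31.7 and 29.8 CPM in the knock-out against 69.9, 66.5 and 67.3 CPM and fell by 1.03 ± 0.11 (edgeR adjusted p = 0.00300). Traf3, an adaptor of several sensors, stood at 45.9, 51.1 and 49.0 CPM against 63.2, 73.9 and 64.4 CPM and fell by 0.47 ± 0.089 (0.0152). Irf8, a factor of myeloid cells, had 4, 0 and 0 reads against 32, 35 and 21 and fell (0.0248). Samhd1, which degrades nucleotides, stood at 185, 182 and 170 CPM against 114, 99.9 and 117 CPM and rose by 0.70 ± 0.088 (0.00475). Irf2bp2, a partner of the repressor IRF2, rose by 0.68 ± 0.067 (0.00234) and Rnaseh2b, a subunit of RNase H2, by 0.63 ± 0.11 (0.0107). Traf3, Rnaseh2b and Irf8 no longer passed when wild-type library 4 or 6 was left out. The same happened to Traf3 with knock-out library 3 left out and to Irf8 when library 2, 3 or 5 was left out (adjusted p in edgeR up to 0.0592 for Traf3, 0.0572 for Rnaseh2b and 0.0982 for Irf8). The DNA sensor gene Cgas (3.72, 2.64 and 2.23 CPM, compared with 1.74, 1.93 and 1.57 CPM) did not pass (0.71 ± 0.28, edgeR adjusted p = 0.109). Nor did Mavs, the adaptor of RIG-I and MDA5 (0.10 ± 0.13, 0.588), or Irf3, the factor that first induces interferon (0.14 ± 0.081, 0.251). Of the 35, 9 (25.7%) had library 1 above and libraries 2 and 3 below the wild type, beside 9.19% of all tested genes. Tlr3, Adar and Trex1 are examples among them, chosen after their values were seen.

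A wider list of 58 other interferon-stimulated genes in the table had 52 tested. Of these, 4 rose and 4 fell, beside 14.1% and 13.7% of all tested genes. The arrangement with library 1 above and libraries 2 and 3 below the wild type held for 19 of the 52 (36.5%), beside 66.7% of the members and 9.19% of all tested genes. Library 1 was above the wild type for 32 of the 52, against 41% of all tested genes. Libraries 2 and 3 were below it for 34 and 35, against 43.9% and 43.7%. Ly6e, a membrane protein gene, departed from that: it stood at 145, 139 and 140 CPM against 33.4, 25.1 and 31.6 CPM and rose by 2.24 ± 0.12 in step in all 3 knock-out libraries (edgeR adjusted p = 5.15e-04). Tor1aip1, which encodes a protein of the nuclear membrane, rose by 0.82 ± 0.070 (0.00156) and Ifitm1, a relative of Ifitm3, by 1.31 ± 0.34 (0.0377). Slfn5 (-3.47 ± 0.50, edgeR adjusted p = 0.00690), Ms4a4d (-2.64 ± 0.39, 0.00714) and the immunoproteasome gene Psmb9 (-1.45 ± 0.26, 0.0129) fell. Ifitm1 no longer passed with total counts, with title stems summed, without the filter, or with knock-out library 2 or any wild-type library left out (adjusted p in edgeR up to 0.148). Psmb9 no longer passed with knock-out library 3 or wild-type library 4 or 6 left out (up to 0.0669).

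Markers of other cells moved with genotype and with library 1, and their part in the interferon-stimulated genes was not tested. Over all tested genes, 14.1% were called higher and 13.7% lower. All 9 tested markers of mesothelium and epithelium of 11 listed fell, and their summed level was 82.6 to 202 CPM in the knock-out, with library 1 at 202, against 3082 to 3231 CPM in the wild type. Of 13 leukocyte markers, 4 were tested, Lyz2 rose and Cd68 and Cd14 fell, and the sum was 22.0 to 25.4 CPM against 60.5 to 70.5 CPM. Ptprc, Adgre1, Itgam, Tyrobp and Siglech, the last a marker of the plasmacytoid cells that make much interferon, had 0 reads in every library. Of 10 endothelial markers, 2 were tested and Kdr rose; the sum was 3.29 to 7.55 CPM against 1.90 to 3.41 CPM, with Tie1 and Cldn5 at 0. Fibroblast markers, 8 tested of 9 and 3 higher, had a sum of 4264, 11950 and 13310 CPM in libraries 1, 2 and 3 of the knock-out, compared with 4494 to 4649 CPM in the wild type. Smooth muscle markers, 9 tested of 12 with 1 higher and 1 lower, summed to 1069, 2603 and 2533 CPM against 1016 to 1177 CPM. By their sums, libraries 2 and 3, in which most interferon-stimulated genes were low, were above the wild type in these last lists and library 1 was not. The smooth muscle sum includes Cald1, which is abundant here and which many other cells also express. Single markers varied: in library 1, 4 of the 8 tested fibroblast markers lay above and 4 below the wild type, and 3 of the 9 smooth muscle markers lay above, 3 below and 3 within. In libraries 2 and 3, 7 of the 8 fibroblast markers lay above and 0 below. Of the 9 smooth muscle markers, 6 lay above in each, and 2 lay below in library 2 and 1 in library 3. Of all tested genes, 41% lay above and 42.1% below in library 1, 43.1% and 43.9% in library 2, and 43.4% and 43.7% in library 3.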

How the data were processed

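RNA was sequenced from 6 libraries, 3 per genotype, each built from 1 ug of RNA by a stranded poly(A) protocol, per the labels' protocols. The deposited table gives whole-number read counts per gene by the authors (exon, unique exon, exon junction and intron reads) and an RPKM value, the authors' count per exon length and depth, which was used only to compare levels between genes and in no test. Per the submitters' processing notes, the build was GRCm38 (mm10). The sources used here name no aligner, counting tool or use of strand, which leaves overlapping, antisense and near-identical genes uncertain.

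The test of exon counts used edgeR 4.0.16 under R 4.3.3 (filterByExpr, minimum count 10, TMM, quasi-likelihood F test of genotype without covariates, Benjamini-Hochberg over all tested genes at 0.05). A standard error is the log2 fold change over the square root of F. Log2 CPM used a prior count of 2. Intron counts had their own filter and scaling. The scripts were tested on simulated data. Alternatives were DESeq2 1.42.0 or its size factors, limma-voom (limma 3.58.1), total counts, no filter, 50 reads in 3 libraries, unique reads, title numbers as covariates, summed libraries (by title stem, or the pairs 2 with 3 and 4 with 6) and leaving out each library.

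The members and lists were chosen with earlier results of these data known. All members are accounted for. Named in full were members that passed, members whose groups did not overlap, the member of highest mean CPM in each role, up to 3 genes called in each direction of the further lists, and Ifnb1, Ifnar1, Ifnar2, Jak1, Tyk2, Irf3, Mavs, Cgas and Sting1; Ifnlr1, Ifngr2 and the other members were named after their values were seen. Of 60 further interferon-stimulated genes, Ifi30 and Pyhin1 were not found under these symbols. Promoter windows come from RefSeq. A gene that the rule names is not reported here.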

Additional observations from a re-analysis of the deposited data

How the results depend on the processing

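No paired analysis was possible because the genotypes share no replicate numbers (1 to 3 and 4 to 6); the unexplained title numbers, which they do share, were run as covariates. Counts depended on single libraries. Leaving out each in turn, 2 to 32 members passed (1 to 5 higher, 1 to 27 lower), 3 to 11 genes of the signalling chain, 3 to 25 of the induction pathway, 4 to 35 of the further interferon-stimulated genes, 1120 to 8486 of all genes and 1 to 11 members on intron reads; each highest value came without knock-out library 1. With the nearly identical pairs summed, which leaves 2 libraries per genotype, 0 members passed in edgeR (0 higher and 0 lower, against 5 and 1 at an unadjusted p under 0.05), 0 genes of each of the 3 other lists and 17 of all genes. Ifit2 (1.56, adjusted p = 0.112), Ifit3 (3.22, 0.166) and Isg20 (-1.08, 0.132) kept their direction there, and the calls of Ifit2 and Isg20 held under every other alternative run. DESeq2 called 6 members (5 higher) and 14 of the further genes, and gave no adjusted p for 7 members. With the last title number as covariate 5 members (4 higher) and 13 further genes passed, and with the number after p 6 members (5 higher). Irf9, Isg15 and Ifit3b were the additional members in DESeq2 and with the number after p. On intron reads 5 members passed with total counts and 5 with the exon scaling, and the shares over all genes are not given for the intron alternatives. Total counts moved the split over all genes to 10.7% higher and 16% lower. The median log2 fold change of the members, 0.13, turned to -0.05 in limma-voom, -0.05 with stems summed, -0.08 with the last title number and -0.50 without knock-out library 1.

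Log2 fold changes of single genes that did not pass with all libraries changed sign with total counts for Stat2 (-0.058), Ifitm3 (-0.0204), Ifi27 (-0.064) and Tyk2 (-0.026), and with title stems summed for Stat2 (-0.053), Ifitm3 (-0.072), Samd9l (-0.0028), Trim30a (-0.057), Ifi44 (-0.12), Ifi27 (-0.072), Lgals3bp (-0.078) and Ifnar1 (0.016). They did so in limma-voom for Irf7 (-0.031), Oasl2 (-0.28), Rsad2 (-0.53), Cmpk2 (-0.94), Ifitm3 (-0.034), Trim30a (-0.33), Ifi44 (-2.55), Rtp4 (-0.017), Ifi27 (-0.026) and Lgals3bp (-0.18), and with the last title number as covariate for Irf7 (-0.18), Oasl2 (-0.42), Rsad2 (-0.47), Cmpk2 (-0.86), Ifitm3 (-0.032), Trim30a (-0.44), Ifi44 (-1.92), Rtp4 (-0.075), Ifi27 (-0.028) and Lgals3bp (-0.19). They did so with the pairs summed for Ifih1 (0.035), Trim25 (0.016), Oasl1 (0.31) and Parp14 (0.18), and with the number after p as covariate for Ifih1 (0.011), Parp14 (0.071) and Ifi44 (-0.58). Leaving out knock-out library 1, and no other library, changed the sign, with this range over the left-out libraries, for Irf1 (-0.12 to 0.022), Irf7 (-1.20 to 1.13), Ddx58 (-0.26 to 0.31), Dhx58 (-0.62 to 1.17), Usp18 (-0.79 to 2.69), Oasl2 (-1.53 to 1.04), Ifit1 (-0.079 to 2.52), Mx2 (-0.64 to 1.29), Rsad2 (-2.30 to 1.51), Cmpk2 (-2.62 to 1.27), Bst2 (-0.19 to 1.47), Ifitm3 (-0.38 to 0.26), Samd9l (-0.29 to 0.26), Trim30a (-1.39 to 0.64), Ifi44 (-4.37 to 0.83), Rtp4 (-1.09 to 1.099), Xaf1 (-0.50 to 0.72), Ifi27 (-0.29 to 0.16), Lgals3bp (-0.82 to 0.47), Tyk2 (-0.13 to 0.16) and Mavs (-0.052 to 0.17). Leaving out that or another library changed it for Stat2 (-0.15 to 0.12), Ifih1 (-0.22 to 0.055), Trim25 (-0.51 to 0.033), Oasl1 (-3.65 to 0.41), Parp14 (-0.42 to 0.19) and Ifnar1 (-0.14 to 0.19). The cause was not tested. Depth limits Oas3, Mx1 and the ligand genes, which had too few reads for a test, and genes with 5 or fewer reads in knock-out libraries 2 and 3, whose fold changes are imprecise.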
